A study of Homo sapiens with 6 samples.

Results

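The genes described here are 45 human genes of RNA sensing and of the interferon response, taken by symbol from a table of 60663 genes and covering the sensors of double-stranded RNA, their signalling proteins, *IFNB1* and its receptor, and interferon-stimulated effectors. Of these 45 genes, 44 had a count in some library, and 41 had enough counts to be tested. Cells recognise double-stranded RNA in endosomes through TLR3 and in the cytoplasm through helicases such as MDA5 (encoded by *IFIH1*), and both routes lead to phosphorylation of interferon regulatory factors and transcription of interferon beta. Secreted interferon then binds the receptor formed by IFNAR1 and IFNAR2, and a complex of STAT proteins with IRF9 switches on the interferon-stimulated genes, many of which encode proteins that bind, degrade or block viral RNA. Fibroblasts are a classical source of interferon beta, and transfected RNA duplexes can engage the same sensors in cultured cells.

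The study silenced *LTBP2*, which encodes a secreted protein of the extracellular matrix, in fibroblasts of the established human colon line CCD18Co. Cells were transfected for 6 h, by means of a cationic lipid reagent, with a pool of siRNAs against *LTBP2* (siLTBP2, 3 libraries) or a pool of non-targeting siRNAs (siNT, 3 libraries), and RNA was taken at 48 h. Both groups thus carried transfected RNA duplexes, and the levels in siNT are those of transfected cells, since untransfected cells were not analysed here. Nothing in the labels says that the replicates numbered 1 to 3 were separate cultures, so the p-values measure the spread between these libraries, which may be technical.

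Counts assigned to genes summed to between 44663424 and 53576899 per library. The silenced gene had 1155, 1141 and 1143 counts in siNT and 283, 407 and 316 in siLTBP2, a remaining level of 30.4% (log2 fold change -1.72, adjusted p = 6.6e-05). Levels are given as TMM-normalized CPM (counts scaled to a common library size), and every adjusted p comes from edgeR's quasi-likelihood test with Benjamini-Hochberg adjustment over the 16920 genes tested. All 7 fibroblast markers were tested, with a summed level of 9405 to 12500 CPM in siNT and 9603 to 13488 CPM in siLTBP2, and 1 of them, *PDGFRB*, was lower in siLTBP2. Of 9 leukocyte markers, 1 had enough counts to be tested and 4 had no count, and their summed level was 0.167 to 0.541 CPM in siNT and 0.228 to 0.613 CPM in siLTBP2. Of 7 epithelial markers, 2 were tested, and the 7 summed to 40.3 to 52.7 CPM in siNT and 85.7 to 99.2 CPM in siLTBP2, a difference carried by the keratin gene *KRT18*, while *KRT20* had no count and *EPCAM* and *CDH1* had 0 to 2 counts per library. Of 5 endothelial markers, 2 were tested, and the summed levels of all 5 were 67.4 to 83.6 CPM in siNT and 59.9 to 74.3 CPM in siLTBP2. Neither tested gene passed. Whether these markers had a part in the results on the sensing genes was not tested.

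The sequence through which interferon-activated factors act, the interferon-stimulated response element, is built on repeats of GAAA spaced by a pair of bases. In the RefSeq promoters of GRCh38.p14, taken as 250 bases before and 50 bases after each gene start, the pattern GAAA, any 2 bases, GAAA was searched on both strands, overlapping matches included. A promoter was given for 35 of the 45 genes, and 20 of these (57.1%) held the pattern, against 1195 of 27305 genes with a promoter (4.38%). The share was 17 of 25 (68.0%) among the effectors and 3 of 10 (30.0%) among the sensors, signalling proteins, receptor chains and *IFNB1*. The windows below are those of 5 effectors that are classical interferon targets and of *EIF2AK2* and *SAMD9*, which are among the genes that changed. They are read 5′ to 3′ on the strand of the gene, and capitals mark bases of a match. They lie at chr1:1013374-1013403 (*ISG15*, plus strand), chr10:89392497-89392526 (*IFIT1*, plus), chr11:320893-320922 (*IFITM3*, minus), chr21:41420559-41420588 (*MX1*, plus), chr19:17405741-17405770 (*BST2*, minus), chr2:37156967-37156996 (*EIF2AK2*, minus) and chr7:93118096-93118125 (*SAMD9*, minus).
ISG15: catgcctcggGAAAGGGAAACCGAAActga
IFIT1: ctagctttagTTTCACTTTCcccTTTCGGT
IFITM3: caaatgccagGAAAAGGAAActgttgaGAA
MX1: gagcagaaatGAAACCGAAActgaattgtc
BST2: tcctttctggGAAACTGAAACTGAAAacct
EIF2AK2: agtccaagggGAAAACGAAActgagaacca
SAMD9: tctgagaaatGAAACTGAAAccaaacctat

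The *ISG15* and *BST2* windows each hold overlapping matches, in which 1 GAAA ends the first match and starts the next. In *IFIT1* the matches lie on the opposite strand and therefore read as TTTC. In *MX1* the match starts 11 bases after the gene start of the promoter, and in *EIF2AK2* it starts 6 bases before it. A match is a description of the letters and does not show that a factor binds there.

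At baseline, levels could be compared between genes as CPM per kilobase of the canonical transcript. *IFITM3*, encoding a membrane protein that restricts viral entry, was the highest in siNT at 375 ± 36.2 CPM per kb (SD, n = 3). It was followed by *ADAR*, which edits adenosines in double-stranded RNA, at 59.7 ± 5.32 CPM per kb, and by *IFITM2* at 51.2 ± 5.24. The ranges of *ADAR* and *IFITM2* overlapped, so that their order was within the spread of the libraries. The mitochondrial adaptor *MAVS* (34.4 ± 4.15), *ISG15* (33.8 ± 3.75), *IRF3* (26.0 ± 0.893) and the RNA-activated kinase gene *EIF2AK2* (21.1 ± 1.04) came next on the same scale.

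Several genes that are strongly inducible by interferon lay at the other end of the scale. In siNT, *OAS1* was at 0.442 ± 0.171, *HERC5* at 0.356 ± 0.0614 and *OASL* at 0.131 ± 0.0447 CPM per kb. *RSAD2*, which encodes viperin, had 6, 3 and 2 counts in siNT and 7, 3 and 2 counts in siLTBP2. Its neighbour *CMPK2* had 8, 5 and 6 counts in siNT and 6 in each siLTBP2 library, and *IFI44L* had 11, 16 and 8 counts in siNT and 5, 10 and 10 in siLTBP2. These 3 genes and *IFNB1* were below the filter on low counts and were not tested. *IFNB1* had a count of 0 in all 6 libraries, which allows at most 0.0556 to 0.0688 CPM depending on the library (3 counts, covering counting error only).

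**Figure D1:**
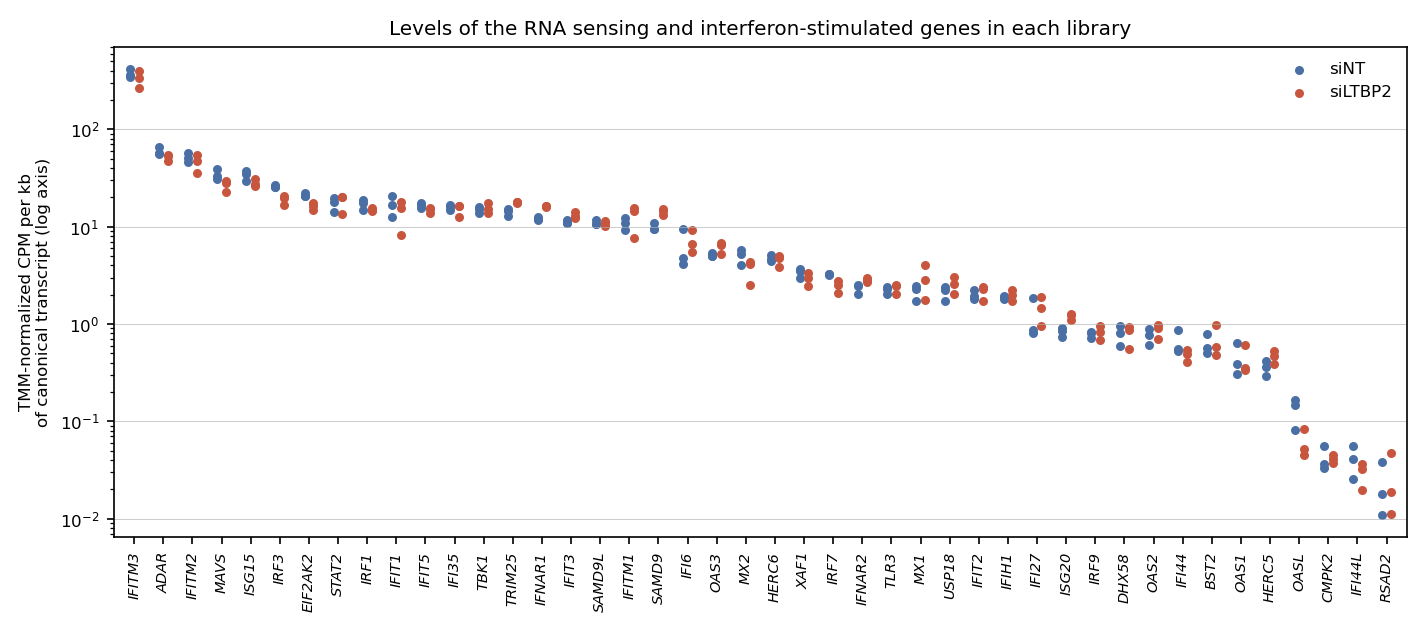
Level of each gene with a count in each library, as TMM-normalized CPM per kilobase of canonical transcript on a log axis, ordered by the mean of the 3 siNT libraries (blue) with the 3 siLTBP2 libraries (red) beside them. *IFITM3* stands highest at 375 CPM per kb in siNT, *RSAD2* lowest at 0.0223, and *IFNB1*, with no counts, is not drawn.

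The main question was whether the sensing and interferon genes differed between siLTBP2 and siNT. At an adjusted p below 0.05, 3 of the 41 tested genes were higher in siLTBP2, where 9.76% of all tested genes were higher, and 2 were lower, where 9.51% of all tested genes were lower. The genes that rose were *IFNAR1*, *TRIM25* and *SAMD9*, and those that fell were *EIF2AK2* and *IRF3*. None of the 41 passed the stricter thresholds of the study, an adjusted p below 0.01 with a change above 2-fold, which 2.57% of all tested genes passed. In 12 of the 41 genes (29.3%) the libraries of the groups did not overlap, which was so in 37% of all tested genes. The median log2 fold change was 0.04 over the 41 genes (quartiles -0.20 and 0.22) and -0.01 over all tested genes (quartiles -0.23 and 0.22), and the median size of the change was 0.21 and 0.23, respectively. Neither count exceeded the share found in the whole table in this main fit, which had no covariate. With the replicate number added to the fit, 17 of the 41 genes passed, 8 higher and 9 lower. This was a larger share than in the whole table, where 36.2% of all tested genes passed. The comparison with the whole table thus depended on the fit.

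For 38 of the 41 genes the 95% confidence interval of the change lay inside 2-fold either way, and for 23 it lay inside 1.5-fold. The intervals that reached beyond 2-fold were those of *OASL* (log2 -2.003 to -0.23), *IFI44* (-1.03 to 0.16) and *IFI27* (-0.53 to 1.09), all 3 genes with few counts. The intervals of *IFI44* and *IFI27* held 0, so that the changes of these genes could not be told from none in these libraries. At an unadjusted p below 0.05 there were 14 genes, 7 higher and 7 lower, where 16.3% of all tested genes were higher and 16% lower.

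**Figure D2:**
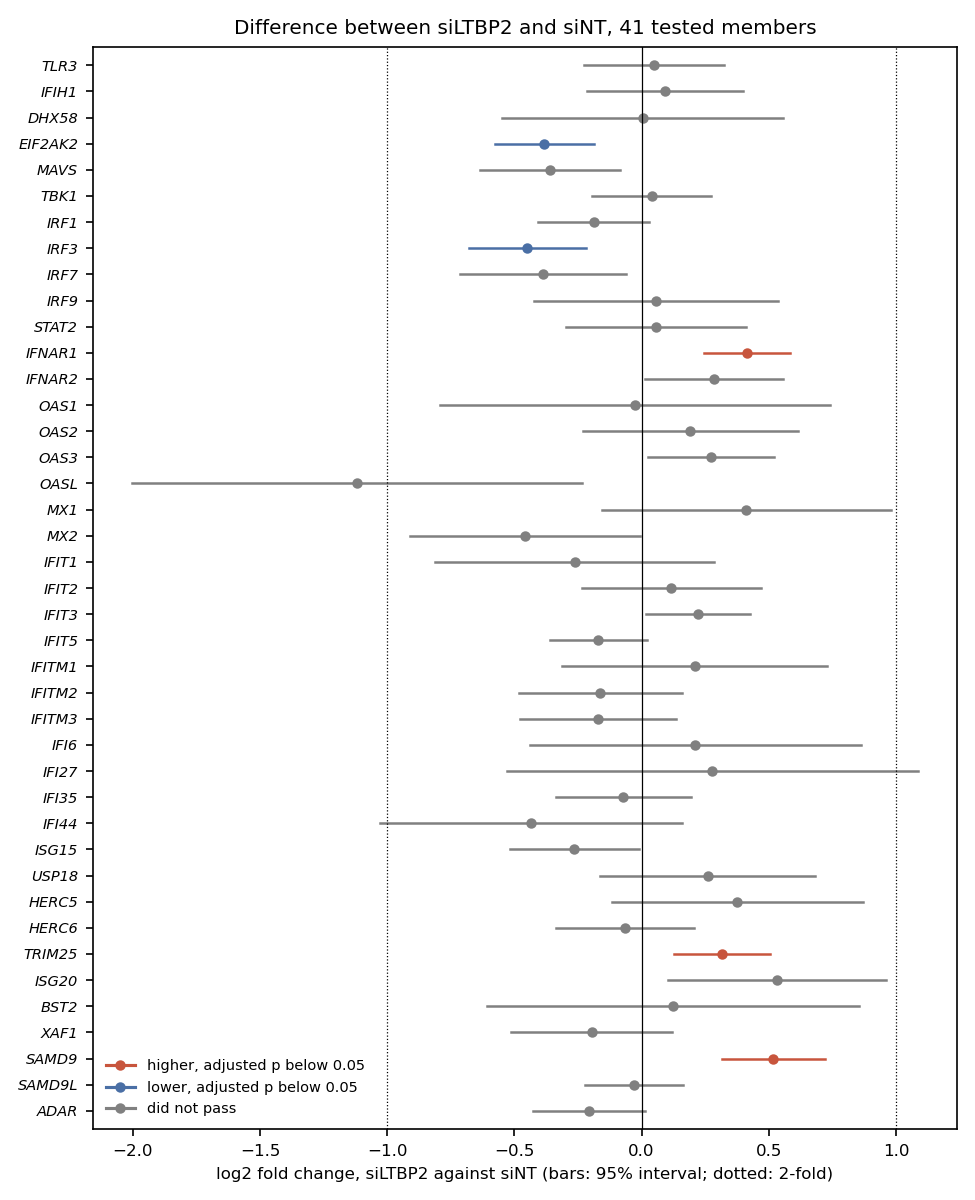
Log2 fold change of siLTBP2 against siNT for the 41 tested genes, ordered by role, with 95% confidence intervals as bars and dotted lines at a 2-fold change. *IFNAR1*, *TRIM25* and *SAMD9* (red) were higher and *EIF2AK2* and *IRF3* (blue) lower at an adjusted p below 0.05, and the other 36 genes (grey) did not pass.

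Among the 4 sensors of RNA, 1 fell, where 9.51% of all tested genes were lower, and 3 did not pass the test. *EIF2AK2* (ENSG00000055332, chr2:37099210-37157522, minus strand) encodes PKR, a kinase that binds double-stranded RNA and arrests translation by phosphorylating eIF2 alpha. Its levels were 222, 205 and 204 CPM in siNT and 162, 173 and 149 CPM in siLTBP2. All siLTBP2 libraries lay below all siNT libraries, and *EIF2AK2* fell by 0.38 on the log2 scale (standard error 0.09, adjusted p = 0.012). Its exons share 35 bases with *GPATCH11* on the other strand, whose own log2 fold change was -0.07.

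*TLR3*, the endosomal receptor for double-stranded RNA, was at 13.8, 14.4 and 12.3 CPM in siNT and at 14.7, 15.1 and 12.1 CPM in siLTBP2. *IFIH1* was at 6.72, 6.91 and 6.49 CPM in siNT and at 8.08, 7.17 and 6.22 CPM in siLTBP2. *DHX58*, whose product LGP2 modulates the cytoplasmic helicases, was at 2.10, 2.45 and 1.54 CPM in siNT and at 2.43, 2.24 and 1.44 CPM in siLTBP2. The groups overlapped for these 3 genes, with log2 fold changes of 0.05 (95% interval -0.23 to 0.32) for *TLR3*, 0.09 (-0.21 to 0.40) for *IFIH1* and 0.0039 (-0.55 to 0.56) for *DHX58*.

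Of the 7 signalling proteins and transcription factors, 1 fell and none rose, where 9.51% of all tested genes were lower and 9.76% higher. *IRF3* (ENSG00000126456, chr19:49659569-49665875, minus strand) encodes the factor that is phosphorylated downstream of the RNA sensors and activates the interferon beta promoter. Its levels were 41.1, 43.1 and 40.3 CPM in siNT and 31.6, 33.3 and 26.4 CPM in siLTBP2. The groups were separate, and *IRF3* fell by 0.45 on the log2 scale (standard error 0.10, adjusted p = 0.013). Of its exon bases, 734 (19.3%) are shared with *BCL2L12* on the opposite strand, and whether the counting used strand is not stated in the sources used here. *BCL2L12* itself was higher in siLTBP2 (log2 fold change 0.37, adjusted p = 0.043), the direction opposite to that of *IRF3*.

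*MAVS*, which relays the signal of the cytoplasmic helicases from the mitochondrial surface, had 458, 365 and 386 CPM in siNT and 349, 329 and 265 CPM in siLTBP2. Its groups did not overlap, with a log2 fold change of -0.36 that missed the threshold (standard error 0.12, adjusted p = 0.068). *IRF7*, the interferon-inducible relative of *IRF3*, was at 6.12, 6.28 and 6.25 CPM in siNT and at 4.89, 5.35 and 4.04 CPM in siLTBP2, also without overlap (log2 fold change -0.39, standard error 0.15, adjusted p = 0.094). The kinase gene *TBK1* (0.04) had a log2 fold change near 0. So did *STAT2* (0.06) and *IRF9* (0.06), whose products act after the interferon receptor. *IRF1* was at -0.19 (95% interval -0.41 to 0.03). *IRF9* shares 1544 exon bases (23.9%) with ENSG00000259529 on the same strand, and *IRF1* shares 2805 (22.9%) with *IRF1-AS1* on the opposite strand. The part of these bases in the values was not tested.

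The receptor chains were both higher in every siLTBP2 library than in any siNT library, and 1 of them passed the test. Such separation of the groups, in either direction, was found in 37% of all tested genes, and 9.76% of all tested genes passed as higher. *IFNAR1* (ENSG00000142166, chr21:33324387-33359864, plus strand), the chain of the type I interferon receptor that binds TYK2, was at 71.2, 77.0 and 72.8 CPM in siNT and at 98.9, 98.2 and 97.8 CPM in siLTBP2. The 3 siLTBP2 libraries were close to one another, and *IFNAR1* rose by 0.42 on the log2 scale (standard error 0.08, adjusted p = 0.0040). *IFNAR2*, the chain with the higher affinity for interferon, was at 10.0, 10.1 and 8.33 CPM in siNT and at 10.99, 11.59 and 12.09 CPM in siLTBP2, a log2 fold change of 0.28 that did not pass (standard error 0.12, adjusted p = 0.14). Of the exon bases of *IFNAR2*, 2038 (14.7%) are shared with ENSG00000249624 on the same strand. How reads from these bases were counted was not tested.

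Among the ISG15 conjugation genes, *TRIM25* rose, where 9.76% of all tested genes were higher, and the other 4 did not pass. *TRIM25* (ENSG00000121060, chr17:56836387-56914080, minus strand) encodes a ubiquitin ligase that acts on cytoplasmic RNA sensing and can also transfer ISG15. Its levels were 88.2, 74.4 and 82.9 CPM in siNT and 102, 101 and 102 CPM in siLTBP2. The groups were separate, with the siLTBP2 libraries close to one another and the siNT libraries further apart, and *TRIM25* rose by 0.31 on the log2 scale (standard error 0.09, adjusted p = 0.027). The call was lost when siNT replicate 2 (log2 fold change 0.25, adjusted p = 0.068), siNT replicate 3 (0.33, 0.065), siLTBP2 replicate 1 (0.31, 0.080) or siLTBP2 replicate 2 (0.32, 0.091) was left out. Its exons share 80 bases (0.644%) with *DGKE* on the opposite strand, which was higher in siLTBP2 as well (log2 fold change 0.62, adjusted p = 0.012), and the part of these bases was not tested.

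*ISG15*, the ubiquitin-like modifier of the system, was at 22.0, 23.6 and 18.9 CPM in siNT and at 17.4, 19.5 and 16.9 CPM in siLTBP2, with overlapping groups (log2 fold change -0.26, 95% interval -0.52 to -0.01, adjusted p = 0.14). *USP18*, encoding the protease that removes ISG15 and damps receptor signalling, was at 3.20, 4.19 and 4.45 CPM in siNT and at 5.64, 4.78 and 3.80 CPM in siLTBP2. The ligase gene *HERC5* was at 1.45, 1.28 and 1.02 CPM in siNT and at 1.65, 1.84 and 1.37 CPM in siLTBP2. Both overlapped between the groups, as did *HERC6*, at 19.3, 17.4 and 16.9 CPM in siNT and at 17.9, 18.9 and 14.5 CPM in siLTBP2.

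In the main fit, where 19.3% of all tested genes passed in either direction, the large families of interferon-stimulated effectors held no gene that passed the test. This was so for 4 of 4 OAS genes, whose products make the 2′-5′ oligoadenylates that activate RNase L (or, for *OASL*, lack that activity), for both MX genes of the dynamin-like antiviral GTPases, for 4 of 4 IFIT genes of proteins that bind viral RNA ends, for 3 of 3 IFITM genes and for the 4 IFI genes tested out of 5. The widest change was that of *OASL*, with 0.541, 0.263 and 0.482 CPM in siNT and 0.275, 0.148 and 0.171 CPM in siLTBP2. The groups overlapped between siNT replicate 2 and siLTBP2 replicate 1, and the log2 fold change of -1.12 did not pass (standard error 0.40, adjusted p = 0.077). Without siNT replicate 2 it passed (-1.37, adjusted p = 0.045). With the replicate number added to the fit, *IFIT1*, *IFIT3*, *MX1*, *MX2*, *OAS3* and *OASL* passed, where 36.2% of all tested genes passed.

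The MX genes had changes of opposite sign, and neither passed in the main fit. *MX1* was at 6.83, 6.30 and 4.80 CPM in siNT and at 11.2, 7.78 and 4.93 CPM in siLTBP2 (log2 fold change 0.41, 95% interval -0.16 to 0.98). *MX2* was at 19.7, 18.0 and 13.6 CPM in siNT and at 14.8, 14.1 and 8.52 CPM in siLTBP2 (-0.46, 95% interval -0.91 to -0.01). In both genes replicate 3 was the lowest library of each group.

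*IFIT1* was at 72.0, 88.7 and 54.3 CPM in siNT and at 76.6, 67.1 and 35.5 CPM in siLTBP2, and the range within each group was wider than the difference between the group means. *IFIT3* was 26.7 ± 0.860 CPM in siNT and 31.1 ± 2.18 in siLTBP2 without overlap (SD, n = 3; log2 fold change 0.22, adjusted p = 0.13), while *IFIT2* (0.12) and *IFIT5* (-0.17) lay on either side of 0. *IFITM3* was at 253, 223 and 210 CPM in siNT and at 243, 206 and 161 CPM in siLTBP2 (-0.17, 95% interval -0.48 to 0.13). *IFITM2* was close to it at -0.16 and *IFITM1* was at 0.21. The members of the IFIT, IFITM and OAS families are similar in sequence, so that reads may be split between them or lost, and their values are uncertain to that extent.

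The IFI genes tested differed in which library stood out. *IFI6*, encoding a small membrane protein of the endoplasmic reticulum and mitochondria, was at 3.37, 7.70 and 3.90 CPM in siNT and at 5.41, 7.42 and 4.50 CPM in siLTBP2, and *IFI27* was at 0.584, 1.34 and 0.631 CPM in siNT and at 1.38, 1.06 and 0.683 CPM in siLTBP2. The second library of siNT was the highest of its group in both, and siLTBP2 replicate 1 was above it for *IFI27*. *IFI35* was lowest in siLTBP2 replicate 3, at 14.97 CPM, and differed by -0.07 on the log2 scale (95% interval -0.34 to 0.20).

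Of the 8 other effectors, 6 were tested and 1 rose, where 9.76% of all tested genes were higher. *SAMD9* (ENSG00000205413, chr7:93099513-93118023, minus strand) encodes a cytoplasmic protein that restricts poxviruses and limits growth. Its levels were 64.7, 74.1 and 64.4 CPM in siNT and 103, 98.5 and 89.6 CPM in siLTBP2. All siLTBP2 libraries were above all siNT libraries, and *SAMD9* rose by 0.52 on the log2 scale (standard error 0.09, adjusted p = 0.0033), the largest change among the 5 genes that passed.

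Its paralog *SAMD9L*, the next gene on chromosome 7, was at 84.7, 75.4 and 75.4 CPM in siNT and at 81.1, 77.2 and 72.3 CPM in siLTBP2. The groups of *SAMD9L* overlapped, with a log2 fold change of -0.03 and a 95% interval of -0.22 to 0.16 that does not reach the interval of *SAMD9* (0.31 to 0.72). *ISG20*, an exonuclease gene, was at 1.17, 1.44 and 1.33 CPM in siNT and at 1.97, 1.99 and 1.75 CPM in siLTBP2, without overlap, and did not pass (0.53, standard error 0.19, adjusted p = 0.082). *ADAR* was 395 ± 35.2 CPM in siNT and 342 ± 25.8 in siLTBP2 (SD, n = 3; -0.21, adjusted p = 0.18), also without overlap. *XAF1* (-0.20) and *BST2* (0.12), which encodes the virion-retaining protein tetherin, overlapped between the groups.

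**Figure D3:**
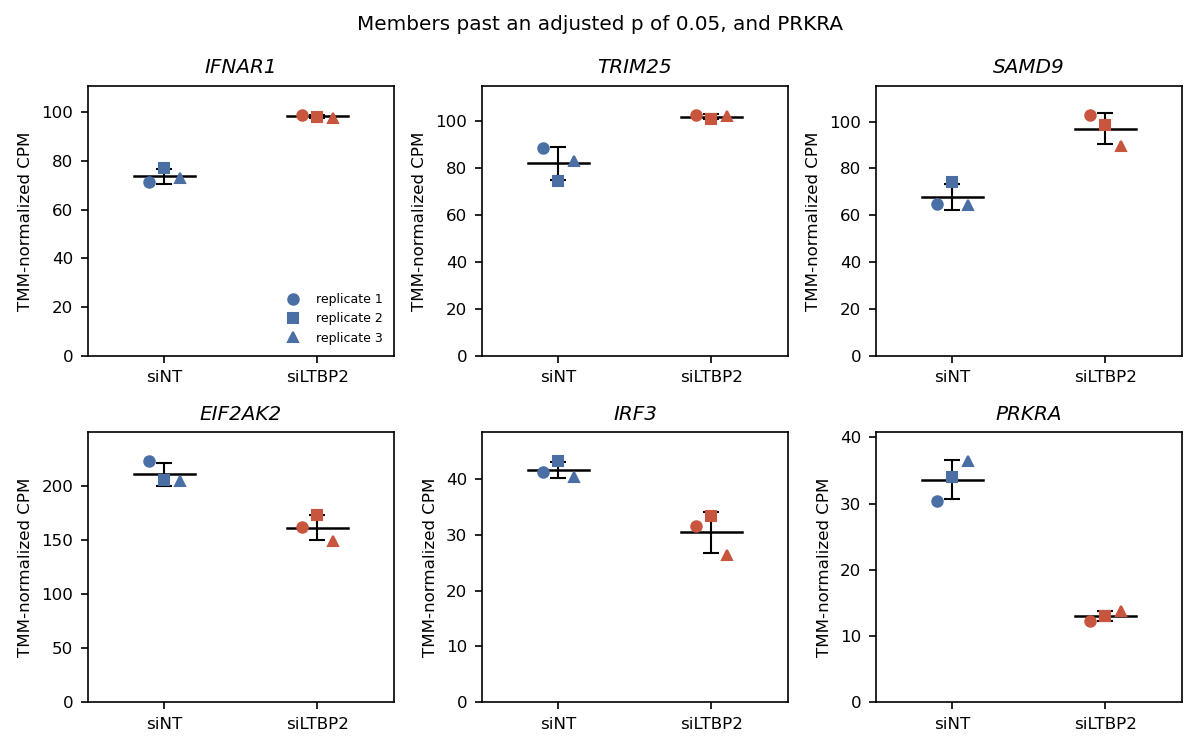
TMM-normalized CPM of *IFNAR1*, *TRIM25*, *SAMD9*, *EIF2AK2*, *IRF3* and *PRKRA* in the 3 siNT (blue) and 3 siLTBP2 (red) libraries, with symbols for the replicate number, lines at the group means and bars of 1 SD. The genes were chosen because they passed in these libraries. The groups are separate in all 6 panels, as they were in 37% of all tested genes. They go from 204 CPM or more to 173 or less for *EIF2AK2* and from 30.4 or more to 13.8 or less for *PRKRA*.

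The promoter pattern was set beside the direction of change. Among tested genes with a promoter, the 18 with the pattern had a median log2 fold change of 0.17, with 12 above 0, and ranged from -0.44 to 0.53. The 13 without it had a median of -0.03, with 5 above 0, and ranged from -0.36 to 0.42. The ranges covered each other for the most part. Tested genes for which no promoter was given were in neither set. Below 0, these were *OASL* (-1.12), *MX2* (-0.46), *IRF3* (-0.45), *IRF7* (-0.39) and *IFITM2* (-0.16). Above 0, they were *IFNAR2* (0.28), *USP18* (0.26), *OAS2* (0.19), *IFIT2* (0.12) and *DHX58* (0.0039). Of the genes that changed, *SAMD9* (higher) and *EIF2AK2* (lower) both carry the pattern in the windows given above.

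A second difference ran between libraries of the same group. In siLTBP2, replicate 3 was the lowest library for 35 of the 41 genes (85.4%), whereas it was the lowest for 38.9% of all tested genes. In siNT, replicate 3 was the lowest for 24 of the 41 (58.5%), against 31.2% of all tested genes. It was the lowest in both groups for 23 of the 41 genes (56.1%), against 19.4% of all genes, and for 17 of the 28 effectors tested (60.7%). *MX1*, *MX2*, *IFIT1* and *IFITM1* were among the genes with the deepest values in replicate 3 of siLTBP2. The median deviation of the 41 genes from their group mean in that library was -0.23 on the log2 scale, and that of all tested genes was -0.0025.

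**Figure D4:**
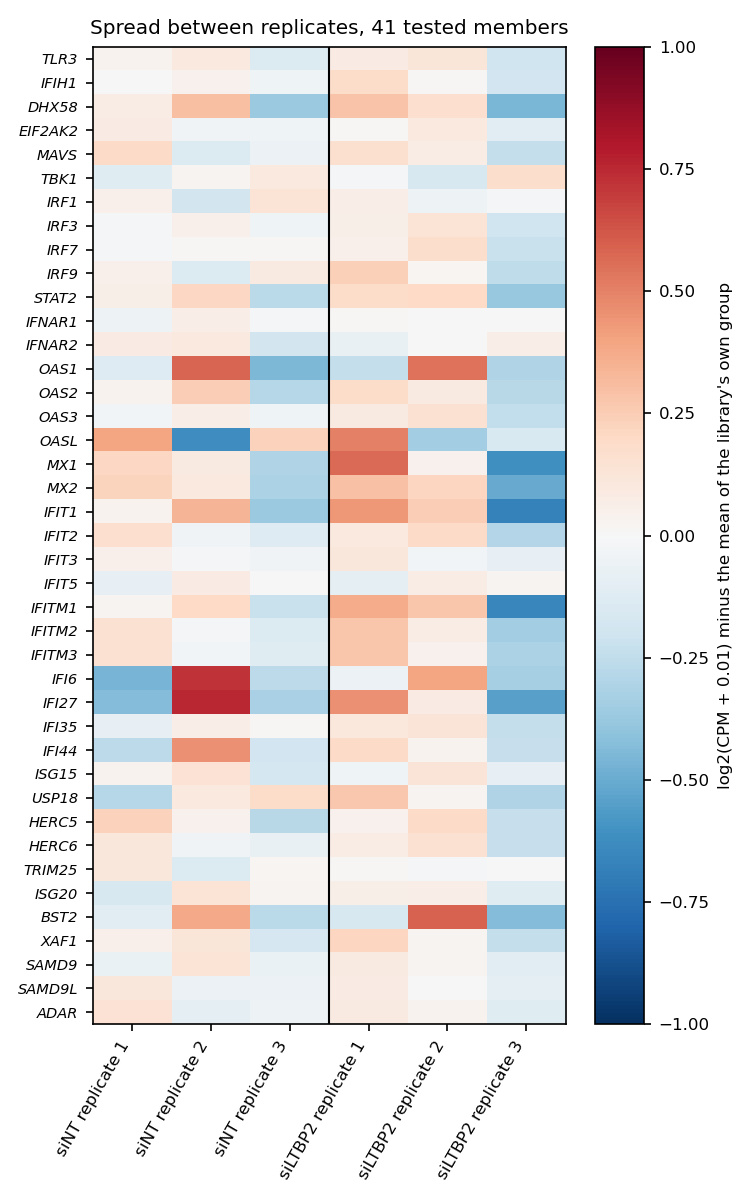
Deviation of each library from the mean of its own group, as log2(CPM + 0.01), for the 41 tested genes in order of role, with siNT libraries at the left of the line and siLTBP2 libraries at the right. The column of siLTBP2 replicate 3 is the lowest of its group (blue) in 35 of 41 genes and that of siNT replicate 3 in 24.

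This spread entered the comparison between the groups. Without siLTBP2 replicate 3, 7 of the 41 genes passed, with *MX1* (log2 fold change 0.67) and *OAS3* (0.39) added to the same 5 genes, while 15.9% of all genes passed. Without replicate 3 of both groups, an alternative chosen after the data were seen, 5 passed, *OAS3* (0.35) in place of *TRIM25* (0.31, adjusted p = 0.082), and 15% of all genes passed. *IFNAR1*, *SAMD9*, *EIF2AK2* and *IRF3* passed in all 15 alternatives, with log2 fold changes of 0.38 to 0.45, 0.47 to 0.59, -0.44 to -0.33 and -0.52 to -0.35, and *TRIM25* in 10 of the 15. What sets replicate 3 apart was not tested.

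The 3′ UTRs were read for the word GCACCCA, which an earlier search of 3′ UTRs had picked out in this same comparison, so that the changes of its carriers are a description and lend no support to it. Of the 41 tested genes, 6 (14.6%) carried the word, as did 1455 of 12314 tested coding genes (11.8%). The carriers were *EIF2AK2*, *MAVS*, *ADAR*, *IFIT1*, *IFI27* and *ISG20*, and their log2 fold changes had a median of -0.24, while tested genes of the 45 without the word had one of 0.05. The same medians over all coding genes were -0.15 and 0.02. *IRF3* held none. Of the 6 carriers, 4 were below 0 and 2 above. The sites of 2 carriers below 0, *EIF2AK2* and *MAVS*, and of the 2 above 0, *IFI27* and *ISG20*, are shown with the word in capitals and 10 bases on either side, from transcripts of GENCODE 44.
EIF2AK2: atgagtcactGCACCCAgccaaaaatg
MAVS: gtgagacactGCACCCAaaccccacca
IFI27: aggggagaagGCACCCAgccatcctga
ISG20: cctagcttaaGCACCCAccaggtgtcg

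To place these genes in their pathway, 119 further genes of 4 lists were examined. Of these, 24 had no count in any library and 85 were tested. Of the 85, 11 were higher and 8 lower, where 9.76% of all tested genes were higher and 9.51% lower. Among 33 other sensing and signalling genes, 26 were tested, 3 were higher and 4 lower. Among 45 other interferon-stimulated genes, 42 were tested, 7 were higher and 2 lower. Of 20 genes of antigen presentation, 16 were tested, none was higher and 2 were lower.

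A single gene of the 119 passed the strict thresholds, *PRKRA* (ENSG00000180228, chr2:178431292-178451512, minus strand), which encodes PACT, a protein that binds double-stranded RNA and activates PKR. It was at 30.4, 34.1 and 36.4 CPM in siNT and at 12.3, 13.1 and 13.8 CPM in siLTBP2. The groups were far apart relative to their spread, and *PRKRA* fell by 1.36 on the log2 scale (standard error 0.11, adjusted p = 4.0e-05). It passed in all 15 alternatives, from -1.43 to -1.30. Its exons share 1068 bases (8.85%) with *CHROMR* on the opposite strand, whose log2 fold change was 0.28. *PRKRA* and its partner *EIF2AK2* were therefore both lower in siLTBP2, by different amounts. Each carried 1 copy of the word GCACCCA, described above, in its 3′ UTR, of 683 bases in *PRKRA* and 8063 bases in *EIF2AK2*. Of 84 tested genes of the 4 lists with a 3′ UTR, 11 carried the word, 4 above 0 and 7 below, against 11.8% of all tested coding genes. The part of the word in these changes was not tested.

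Genes of these lists that also passed and changed by more than 1.5-fold included 2 higher and 2 lower genes with more than 10 CPM in every library. *IFI16*, encoding a sensor of DNA, went from 100.2 ± 1.38 to 152 ± 8.63 CPM (SD, n = 3; log2 fold change 0.61, adjusted p = 6.2e-04), and *SOCS3*, an inhibitor of cytokine receptor signalling, from 66.7 ± 8.26 to 101 ± 6.72 CPM (0.60, 0.0026). *HELZ2*, a helicase gene, went from 68.6 ± 6.89 to 44.3 ± 4.90 CPM (-0.63, 0.0026), and *UBA7*, which encodes the activating enzyme of ISG15, from 21.6 ± 1.65 to 13.8 ± 2.67 CPM (-0.65, 0.011). The call of *UBA7* was lost without siNT replicate 2 (adjusted p = 0.051), and the other 3 passed in all 15 alternatives.

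Of 21 other interferon ligand genes, 19 had no count in any library and 1 was tested. This was *IFNE*, the interferon of epithelia of the reproductive tract, with 13, 45 and 20 counts in siNT and 54, 53 and 71 counts in siLTBP2. It passed narrowly (log2 fold change 1.24, standard error 0.37, adjusted p = 0.040), at 0.521 ± 0.341 CPM in siNT and 1.24 ± 0.113 in siLTBP2. The call was lost in 8 of 15 alternatives, among them leaving out any library but siNT replicate 2, with adjusted p-values up to 0.15. *ZBP1*, *TLR7*, *TLR8*, *TLR9* and the lambda interferon receptor chain *IFNLR1* also had a count of 0 in all 6 libraries.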

How the data were processed

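RNA of 3 siNT and 3 siLTBP2 libraries was depleted of ribosomal RNA and sequenced as stranded libraries. The authors aligned the reads to GRCh38 with STAR 2.7.1a in 2 passes and used HTSeq 0.11.2 to make the table they deposited, which holds raw counts for each gene with no normalization (versions from the submitters' processing notes). The annotation release and whether counting used strand are not stated in the sources used here, and 60462 of the 60663 gene identifiers are in GENCODE 44, which gave coordinates and canonical transcript lengths.

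Genes kept by filterByExpr were TMM-normalized and tested with edgeR 4.0.16 in R 4.3.3 (glmQLFit, glmQLFTest, two-sided, no covariate), with Benjamini-Hochberg adjustment over the 16920 genes tested. The study used edgeR's likelihood ratio test, run here as an alternative. Library totals were 44663424 to 53576899 counts, which limits the precision of genes with few counts. Libraries of a group differed by more than sampling noise (chi-square per degree of freedom 27.7 to 55.1).

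The 45 genes, the lists of further genes and the tests were chosen with earlier results of these data known. Values in every library are given for genes past an adjusted p of 0.05, sensors, *IFNB1* and the ISG15 system. Those of other genes were added after their values were seen. Of the further genes, those past an adjusted p of 0.05 and 1.5-fold or with no count are named, except for 1 gene that is not reported here. Alternatives were the likelihood ratio test, DESeq2 1.42.0, scaling by total counts, upper quartiles or RLE factors, 2 other filters, the replicate number as a block, another threshold and leaving out each library. The scripts were tested on simulated data.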

Additional observations from a re-analysis of the deposited data

How the results depend on the processing

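The count of lower genes was 2, and it moved to 4 with the likelihood ratio test (*MAVS* and *OASL* added; 22.5% of all genes passed) and to 4 with no filter on low counts (*MAVS* and *MX2* added; 11.5%). With DESeq2 or with total counts, *MAVS* was added, and RLE factors, upper-quartile factors and a filter of 1 CPM in 3 libraries gave the same 5 genes. No gene of the 45 passed the strict thresholds in any alternative. At an adjusted p below 0.05 with a change above 1.5-fold, none passed with all libraries in the quasi-likelihood test without the block, while *OASL* did with the likelihood ratio test (-1.12), with the block (-1.11) and without siNT replicate 2, *MX1* without siLTBP2 replicate 3 and *SAMD9* without siNT replicate 2 (0.59). Leaving out 1 library at a time gave 2 to 5 higher genes and 2 to 3 lower genes (12.4% to 15.9% of all genes passed), and 11 to 18 of the further genes in place of 19, with the lowest count, 11, without siLTBP2 replicate 2 and 12 without siNT replicate 2. Adding the replicate number to the fit (replicate block) gave 8 higher and 9 lower genes and 42 further genes, while 36.2% of all genes passed against 19.3%. The genes of the 45 that it added were *ADAR*, *IFIT1*, *IFIT3*, *IFNAR2*, *IRF7*, *ISG15*, *ISG20*, *MAVS*, *MX1*, *MX2*, *OAS3* and *OASL*. The deviations of same-numbered libraries from their group means correlated at 0.298, 0.0832 and 0.428, and those of different-numbered libraries at -0.391 to 0.103. Each library correlated best with its own number except siNT replicate 2, at 0.103 with siLTBP2 replicate 1 and 0.0832 with siLTBP2 replicate 2. The numbers were not taken as pairs in the main fit, as the same-numbered value of 0.0832 was below 0.1. The same-numbered values of 0.298 and 0.428 were above every different-numbered value. Replicate 3 was the lowest library of both groups for 56.1% of the tested genes of the 45, against 19.4% of all tested genes. The choice of fit set the count, with 5 genes of the 45 passing without the block and 17 with it. The fit with the block treats them as pairs. The median log2 fold change of all genes was -0.04 with total counts and -0.0101 to -0.0041 with the other scalings.

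Of 611 values of single genes under the alternatives, 552 kept direction and side of the threshold, 22 newly passed, 5 no longer passed and 32, in 13 genes that did not pass, changed sign. *DHX58* turned to -0.0014 with upper-quartile factors, -0.038 with total counts, -0.0086 with no filter and -0.0019 with the block, and *TBK1* to -0.00019 with total counts. With 1 library left out at a time, the log2 fold change ranged from -0.052 to 0.11 for *TBK1*, -0.015 to 0.67 for *IFI6*, -0.069 to 0.022 for *SAMD9L*, -0.070 to 0.18 for *IRF9*, -0.36 to 0.33 for *OAS1*, -0.015 to 0.15 for *TLR3*, -0.16 to 0.21 for *DHX58*, -0.063 to 0.23 for *STAT2*, -0.24 to 0.34 for *BST2*, -0.0013 to 0.19 for *IFIH1*, -0.48 to 0.0070 for *IFIT1*, -0.14 to 0.043 for *IFI35* and -0.15 to 0.043 for *HERC6*. Without replicate 3 of both groups, *TBK1* was at -0.022 and *IFI35* at 0.030. The cause was not tested.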

Other observations

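In the libraries of siLTBP2, replicate 2 held counts of immune genes that the other libraries held rarely or not at all. These genes were picked after their values were seen. *IRF8*, a factor of myeloid and B cells, had 15 counts there and 0 in the other 5 libraries. *HLA-DRB1* had 10 counts and *HLA-DRA* 4, again with 0 in the others. *CD74*, the invariant chain of class II antigen presentation, had 22 counts, against 0 to 8 elsewhere, and *PTPRC*, the pan-leukocyte gene CD45, had 8 against 0 or 1. Without this library, *IFNAR1*, *SAMD9*, *EIF2AK2* and *IRF3* still passed, and *TRIM25* did not.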
